A study of Mus musculus with 12 samples.

Results

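The collagen-modifying enzymes and chaperones described here are 10 genes, taken as the rows of the deposited table named P4ha1, P4ha2, P4ha3, P4hb, Plod1, Plod2, Plod3, Serpinh1, Crtap and P3h1, of 29862 genes in all. Newly made collagen chains are modified in the endoplasmic reticulum before they fold into a triple helix. Prolyl 4-hydroxylases are assembled from an α subunit, encoded by a P4ha gene, and the β subunit encoded by P4hb (protein disulfide isomerase), and the hydroxyproline they make stabilizes the helix. Lysyl hydroxylases, encoded by the Plod genes, prepare lysines for sugar attachment and for cross-links in the matrix, prolyl 3-hydroxylase 1 (P3h1) works in a complex with cartilage-associated protein (Crtap) and cyclophilin B (Ppib), and HSP47 (Serpinh1) is a chaperone that binds folded procollagen. In cartilage and other connective tissues these genes are needed for a stable fibrillar matrix.

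The RNA came from immortalized mandibular fibrochondrocytes, cells of the fibrous cartilage that covers the jaw joint, isolated from C57BL/6J mouse pups 10 to 14 days old and given hTERT with GFP by a retrovirus, after which 1 fast-growing clone was kept. Control cells are that clone, and NG2|EDmut cells are 1 CRISPR/Cas9 clone made from it whose NG2/CSPG4, a cell-surface proteoglycan, has a truncated type VI collagen-binding region in its ectodomain. Each line was grown either serum-supplemented, in AMEM with heat-inactivated FBS, or under serum starvation, in Optimem without serum, and both media held L-Glut, Pen and Plasmocin. Base medium and serum thus changed together, and their parts in any change called starvation here cannot be told apart. There were 3 biological replicates in each of the 4 groups. Every group shares hTERT, GFP and the founder clone, and each line is 1 clone, so a p-value here reflects only how cultures of 1 clone vary, and other edited clones could differ. The sources used here do not state the duration of starvation before lysis.

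The 12 libraries held between 60277881 and 77172479 estimated counts, of which 0.49% to 4.82% were ribosomal RNA. Of 8 fibroblast and fibrochondrocyte markers none had a group mean under 1 CPM (the estimated counts scaled to a common library total after TMM), whereas 3 to 5 of 12 chondrocyte markers did, Col9a1, a cartilage collagen chain, among them at no more than 0.17 CPM in any library. Others were expressed: the chondrocyte markers summed to 688 to 1080 CPM in control and 462 to 702 CPM in NG2|EDmut cells. Most of that sum was Col11a1, and Sox9 was at 18.8 to 49.2 CPM. The summed level of 8 macrophage markers ranged from 46.5 to 122 CPM in control cells and from 11.5 to 25.4 CPM in NG2|EDmut cells, most of it Lyz2, and Ptprc, which defines white blood cells, was at or under 0.143 CPM in every library. Of 3 osteoclast markers in the table the sum was 166 to 289 CPM in control and 89.1 to 162 CPM in NG2|EDmut cells. Nearly all of it was Ctsk, as Acp5 was at most 0.989 CPM and Mmp9 at most 2.64 CPM in any library. Endothelial (up to 11.1 CPM), epithelial (up to 27.5 CPM) and skeletal muscle markers (up to 5.20 CPM) summed to little. The part of these markers in the results was not tested. Control serum replicate 1 stood apart from the other serum-supplemented control libraries: its correlation with them across genes (Pearson r 0.974 and 0.970 on log2 CPM) was below that between those 2 (0.992) and also below its correlation with the 3 starved control libraries (0.977 to 0.985). In that library P4ha3 was lower by 0.84 and Crtap by 0.87 on the log2 scale than in the mean of the other 2, while the remaining members differed by 0.09 to 0.24 in either direction, so results that rest on it are given with and without it.

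All 10 members passed the filter on low counts. On the FPKM scale, which divides by gene length and so allows genes to be compared with each other, Serpinh1 had the highest median over the 12 libraries (709 FPKM), followed by P4hb (466), P4ha1 (92.8), Crtap (76.2), P3h1 (59.0), Plod3 (23.7), Plod2 (20.5), Plod1 (15.4), P4ha2 (14.6) and P4ha3 (10.5). The FPKM of Serpinh1 was above that of P4hb in every library, by 1.12 to 2.11 times, and these 2 chaperone genes lay at percentiles 99.8 and 99.7 of mean FPKM among the 18703 genes tested. The ranges of P4ha1, Crtap and P3h1 overlapped one another, as did those of the 3 Plod genes, P4ha2 and P4ha3. Compared within each library, Plod2 was above Plod1 in every library, and so was P4ha1 above P3h1. The other neighbours in these stretches of the order changed places between libraries. The median of P4ha3 lies between the lines, at 17.5 to 32.0 FPKM in control and 1.78 to 3.49 FPKM in NG2|EDmut libraries. In every control library P4ha3 was above P4ha2, and in every NG2|EDmut library it was below. The least variable member was Plod3, whose highest FPKM was 1.23 times its lowest, and the most variable was P4ha3, whose highest FPKM was 18.0 times its lowest.

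**Figure D1:**
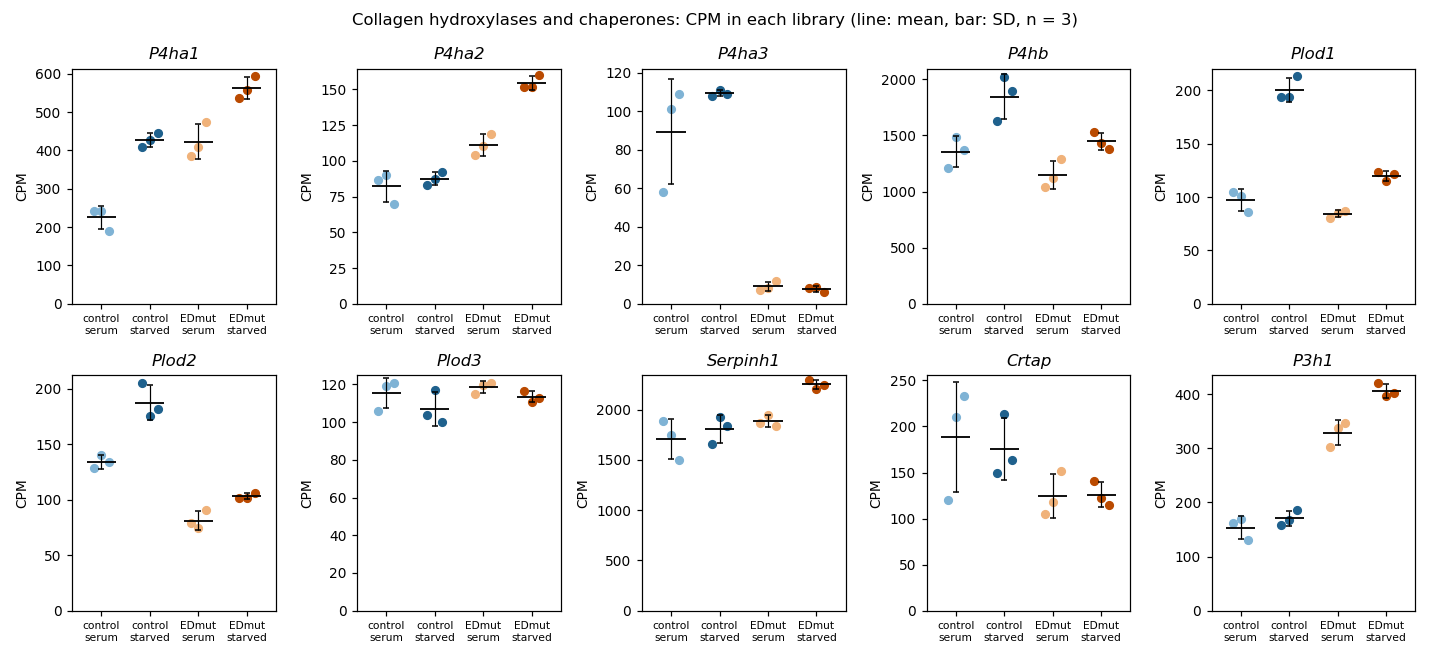
Levels of the 10 members in CPM (vertical axes, starting at 0) in each of the 12 libraries (points), by group, with the mean (line) and SD (bar, n = 3). P4ha3 lies under 12 CPM in all 6 NG2|EDmut libraries and at 58.1 CPM or above in all 6 control libraries, whereas P3h1 is above 300 CPM in all NG2|EDmut libraries and at most 186 CPM in all control libraries.

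The members did not move as 1 block between the lines: the prolyl 4-hydroxylase α subunits P4ha1 and P4ha2 and the 3-hydroxylase P3h1 were higher in NG2|EDmut cells, and P4ha3 and the lysyl hydroxylase Plod2 were lower, in both conditions. In serum, 3 of 10 members were called higher in NG2|EDmut than in control cells (edgeR, adjusted p under 0.05), beside 15.4% of all genes tested, and 2 were called lower, beside 16.2%. Under starvation 4 were called higher, beside 17.9% of all genes, and 4 lower, beside 20.1%. The median log2 fold change of the members was -0.08 in serum and -0.13 under starvation, against -0.03 and -0.02 over all genes tested. The expression changes are of RNA per culture, in which fewer cells of a kind and less RNA per cell cannot be told apart.

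**Figure D2:**
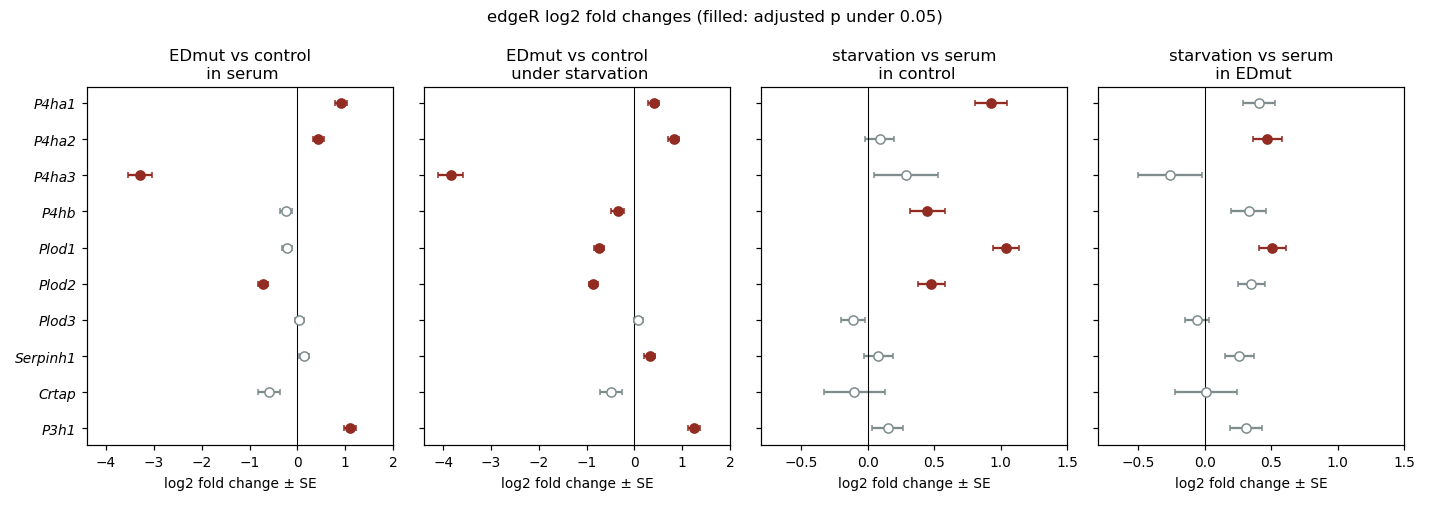
Log2 fold changes of the 10 members (points, bars ± SE) in 4 comparisons from the edgeR fit over all 12 libraries; filled points have an adjusted p under 0.05. P4ha3 falls furthest between the lines (-3.29 in serum and -3.84 under starvation) and P3h1 rises furthest (1.10 and 1.25), while the changes with starvation stay between -0.26 and 1.04.

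The 3 α subunit genes of the prolyl 4-hydroxylases carry the catalytic site, and each can pair with the β subunit. They went in opposite directions between the lines, so their promoters are shown side by side. The sequences are from RefSeq (mouse build GRCm38.p6), run from 250 bases before to 50 bases after the annotated start, all lie on the + strand of the genome, and capitals mark matches to ACGTG or GCGTG, the core letters of the hypoxia response element, on either strand (CACGT or CACGC where the match is on the other strand). P4ha1 is at chr10:59323046-59323345, P4ha2 at chr11:54100674-54100973 and P4ha3 at chr7:100285270-100285569.
P4ha1: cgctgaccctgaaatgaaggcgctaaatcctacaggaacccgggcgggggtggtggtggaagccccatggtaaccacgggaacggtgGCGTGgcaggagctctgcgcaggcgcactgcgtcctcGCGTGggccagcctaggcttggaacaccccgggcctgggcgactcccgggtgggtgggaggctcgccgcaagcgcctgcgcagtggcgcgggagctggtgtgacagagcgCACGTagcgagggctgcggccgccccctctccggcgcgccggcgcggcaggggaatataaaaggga
P4ha2: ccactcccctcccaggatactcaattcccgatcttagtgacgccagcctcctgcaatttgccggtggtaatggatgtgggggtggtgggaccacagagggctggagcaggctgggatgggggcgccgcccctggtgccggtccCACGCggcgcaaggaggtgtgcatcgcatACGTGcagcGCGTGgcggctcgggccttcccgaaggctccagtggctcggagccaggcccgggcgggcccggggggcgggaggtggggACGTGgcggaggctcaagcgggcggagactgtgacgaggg
P4ha3: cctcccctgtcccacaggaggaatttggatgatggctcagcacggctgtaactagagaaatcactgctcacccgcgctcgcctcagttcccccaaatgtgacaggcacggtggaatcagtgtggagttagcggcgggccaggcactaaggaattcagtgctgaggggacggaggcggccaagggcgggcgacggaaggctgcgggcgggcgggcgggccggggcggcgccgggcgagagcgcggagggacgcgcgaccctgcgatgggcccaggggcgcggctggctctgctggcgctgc
The P4ha1 window held 3 matches, the P4ha2 window 4 and the P4ha3 window 0. Of 32851 RefSeq promoters of the same length, 43.8% held at least 1 match and 8.93% held 3 or more. RefSeq promoters were found for 9 of the 10 members, all but Plod2, and the others held 1 (Serpinh1), 2 (Plod1 and each of the 2 promoters of P3h1), 3 (P4hb and Crtap) or 4 matches (Plod3). No member promoter held the ER stress element, found in 0.119% of all promoters, or the heat shock element, found in 0.603%. A match to these letters is a description of the sequence and not of binding.

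P4ha1 encodes the α subunit of the main prolyl 4-hydroxylase of most cells. In serum it was at 243, 243 and 189 CPM in the 3 control libraries and at 384.5, 409.9 and 474 CPM in the 3 NG2|EDmut libraries. The groups did not overlap, and the fitted difference was 1.88-fold (log2 fold change 0.91 ± 0.12 SE, edgeR adjusted p = 1.96e-04). Under starvation the control libraries were at 409.9, 428 and 446 CPM and the NG2|EDmut libraries at 538, 558 and 593 CPM. These groups did not overlap either, with a smaller difference of 1.32-fold (0.40 ± 0.12, edgeR adjusted p = 0.0238), which was not called without NG2|EDmut starved replicate 2 (adjusted p = 0.0615) or replicate 3 (0.0873).

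P4ha2 encodes the second α subunit isoform, which is well known from chondrocytes and bone cells. In serum the control libraries were at 86.5, 89.8 and 70.1 CPM and the NG2|EDmut libraries at 104, 111 and 119 CPM. Every NG2|EDmut value was above every control value, and the difference was 1.35-fold (log2 fold change 0.44 ± 0.11, edgeR adjusted p = 0.00976), although a fit to these 6 libraries alone did not call it (adjusted p = 0.0770). Under starvation the control libraries were at 83.1, 87.6 and 92.0 CPM and the NG2|EDmut libraries at 151, 152 and 160.1 CPM. The groups lay well apart, with a difference of 1.76-fold (0.82 ± 0.11, edgeR adjusted p = 1.11e-04) that was called whichever library was left out.

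P4ha3 encodes the third α subunit isoform and showed the largest fall of the members. In serum the control libraries were at 58.1, 101 and 109 CPM and the NG2|EDmut libraries at 7.27, 8.29 and 11.8 CPM. Even the lowest control library, control serum replicate 1, was several times above the highest NG2|EDmut library, and the fitted difference was 9.80-fold (log2 fold change -3.29 ± 0.26, edgeR adjusted p = 3.63e-06). Under starvation the control libraries were at 108, 111 and 109 CPM and the NG2|EDmut libraries at 8.13, 8.77 and 5.94 CPM, a difference of 14.35-fold (-3.84 ± 0.26, edgeR adjusted p = 7.75e-07). The control group was tight and far above the NG2|EDmut group. Of all genes tested 253 (1.35%) had a lower log2 fold change than P4ha3 in each condition.

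The make-up of the α subunit transcripts therefore differed between the lines. The share of P4ha1 in the summed FPKM of the 3 P4ha genes was 64.6%, 55.9% and 50.1% in serum-supplemented control libraries and 83.1%, 83.0% and 83.5% in NG2|EDmut libraries. The control values were spread widely and all lay below the NG2|EDmut values, a difference of 26.4 percentage points (SE 4.22, exact two-sided permutation p = 0.1, the smallest that 3 against 3 libraries can give), or 30.2 points without control serum replicate 1. Under starvation the share was 67.6%, 67.8% and 68.7% in control and 83.0%, 83.3% and 84.0% in NG2|EDmut libraries, a difference of 15.4 points (SE 0.450, exact permutation p = 0.1). From TMM-scaled estimated counts, which are not divided by length, the differences were 21.1 points in serum and 9.14 points under starvation. The share of P4ha3 was 20.3%, 30.5% and 37.7% in serum-supplemented control libraries and 2.05%, 2.20% and 2.71% in the NG2|EDmut ones. Under starvation it was 23.4%, 23.1% and 22.0% in control and 1.65%, 1.71% and 1.10% in NG2|EDmut libraries, so the groups stayed far apart. The summed FPKM of the 3 genes did not fall with P4ha3: its mean was 89.6 ± 6.91 (SD, n = 3) in control and 116 ± 11.8 in NG2|EDmut cells in serum, and 138 ± 6.15 and 155 ± 6.41 under starvation.

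**Figure D3:**
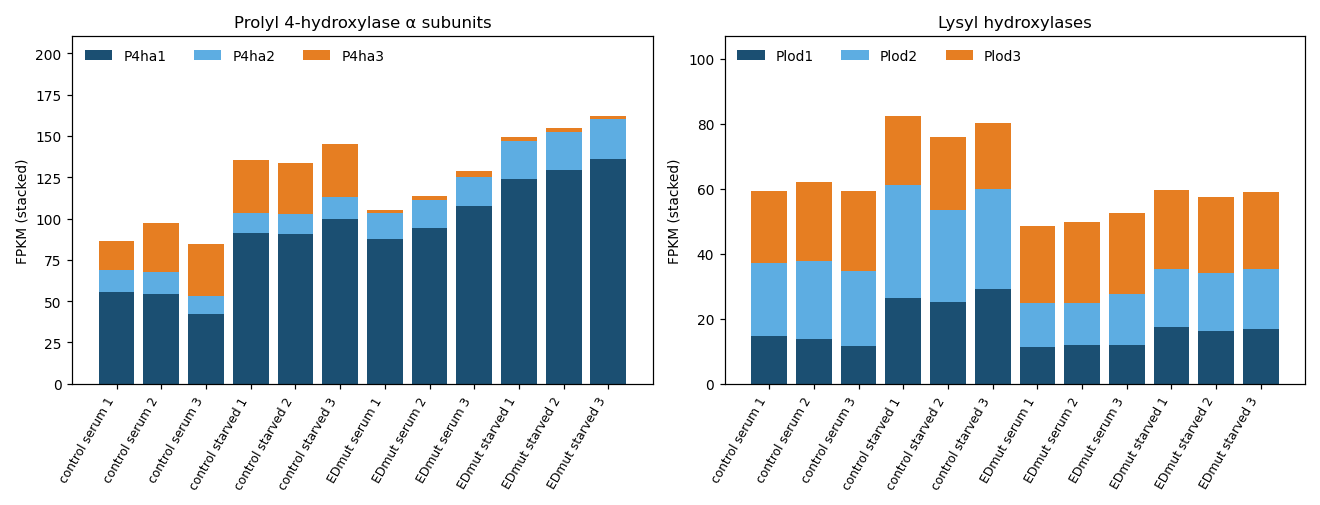
Stacked FPKM (vertical axes) of the 3 prolyl 4-hydroxylase α subunit genes (left) and of the 3 lysyl hydroxylase genes (right) in each of the 12 libraries. P4ha3 takes 20.3% to 37.7% of the P4ha sum in control libraries and at most 2.71% in NG2|EDmut libraries, and Plod2 takes at least 37.4% of the Plod sum in control libraries and at most 31.5% in NG2|EDmut libraries.

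P4hb, whose product is also a general disulfide isomerase, differed little between the lines. In serum it was at 1210 to 1484 CPM in control and 1037 to 1286 CPM in NG2|EDmut libraries, which overlapped (log2 fold change -0.24 ± 0.13, edgeR adjusted p = 0.180). Under starvation it was at 1626, 2016 and 1893 CPM in control and 1527, 1434 and 1377 CPM in NG2|EDmut libraries, which did not overlap (-0.35 ± 0.13, edgeR adjusted p = 0.0474). This call was lost when any 1 of 10 of the 12 libraries was left out (adjusted p up to 0.172). Set against the α subunits, P4hb FPKM per summed P4ha FPKM was 4.63, 4.91 and 5.22 in serum-supplemented control libraries and 3.23, 3.27 and 3.26 in the NG2|EDmut ones. Under starvation the ratio was 3.86, 4.59 and 4.19 in control and 3.39, 3.08 and 2.80 in NG2|EDmut libraries, lower in every NG2|EDmut library than in any control library of the same condition.

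Among the lysyl hydroxylases, Plod2, whose enzyme acts on the telopeptide lysines that set the type of cross-link, was lower in NG2|EDmut cells in both conditions. Its level in serum was 128, 141 and 134 CPM in control and 79.0, 74.5 and 90.4 CPM in NG2|EDmut libraries. The groups did not overlap, and the level was 1.65-fold lower in NG2|EDmut cells (log2 fold change -0.72 ± 0.10, edgeR adjusted p = 2.73e-04). In starved cells it was at 205, 176 and 181.5 CPM in control and 102, 102 and 106 CPM in NG2|EDmut libraries, 1.81-fold lower (-0.86 ± 0.10, edgeR adjusted p = 5.10e-05). No NG2|EDmut library reached the lowest control library, and both differences were called whichever library was left out.

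Plod1 encodes lysyl hydroxylase 1, which acts on lysines of the helical part of collagen. Its level in serum was 105, 101 and 85.7 CPM in control and 80.7, 84.9 and 87.4 CPM in NG2|EDmut libraries. These overlapped (log2 fold change -0.21 ± 0.10, edgeR adjusted p = 0.141). In starved cells it was at 194, 194 and 214 CPM in control and 124, 115 and 121 CPM in NG2|EDmut libraries, which lay apart by 1.67-fold (-0.74 ± 0.10, edgeR adjusted p = 1.26e-04). Plod3, whose enzyme also carries glycosyltransferase activity, was at 99.9 to 121 CPM in control and 111 to 121 CPM in NG2|EDmut libraries over both conditions. Its log2 fold change was 0.04 ± 0.09 in serum (edgeR adjusted p = 0.799) and 0.08 ± 0.09 under starvation (0.521), so no difference was detected.

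The share of Plod2 in the summed FPKM of the 3 Plod genes was 37.9%, 38.7% and 38.6% in serum-supplemented control libraries and 28.2%, 26.1% and 29.7% in NG2|EDmut libraries. The groups were apart by 10.4 percentage points, lower in NG2|EDmut cells (SE 1.06, exact two-sided permutation p = 0.1, the smallest possible). Under starvation the share was 42.5%, 37.4% and 38.5% in control and 30.0%, 31.3% and 31.5% in NG2|EDmut libraries, a difference of -8.53 points (SE 1.61, exact permutation p = 0.1). The share of Plod3 was correspondingly larger in NG2|EDmut cells, 48.8% ± 1.35 against 39.4% ± 2.15 in serum and 40.5% ± 0.533 against 26.9% ± 2.43 under starvation (SD, n = 3).

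P3h1 was the member with the largest rise. In serum it was at 162, 169 and 130.0 CPM in control and 302, 337 and 346.5 CPM in NG2|EDmut libraries, which did not overlap (2.14-fold, log2 fold change 1.10 ± 0.12, edgeR adjusted p = 3.76e-05). In starved cells it was at 158, 167 and 186 CPM in control and 419.9, 397 and 401 CPM in NG2|EDmut libraries, which again lay far apart (2.38-fold, 1.25 ± 0.12, edgeR adjusted p = 7.76e-06). Both differences were called whichever library was left out.

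Crtap, which has no enzyme activity of its own, did not rise with P3h1. Its level in serum was 120.5, 211 and 233.5 CPM in control and 105, 118 and 151 CPM in NG2|EDmut libraries, which overlapped because control serum replicate 1 was low (log2 fold change -0.59 ± 0.23, edgeR adjusted p = 0.0695). Without that library the difference was called (-0.83, adjusted p = 0.00253), as it was by DESeq2 over all libraries (-0.62, adjusted p = 0.0361). Under starvation it was at 149, 213.5 and 164 CPM in control and 141, 122 and 114 CPM in NG2|EDmut libraries, which did not overlap but did not pass the test (-0.48 ± 0.23, edgeR adjusted p = 0.123). Without control serum replicate 1 this difference too was called (adjusted p = 0.0269).

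On the FPKM scale Crtap exceeded P3h1 in all control libraries and P3h1 exceeded Crtap in all NG2|EDmut libraries. The ratio of Crtap to P3h1 FPKM was 1.62, 2.71 and 3.90 in serum-supplemented control libraries and 0.755, 0.761 and 0.949 in the NG2|EDmut ones. Under starvation it was 2.04, 2.78 and 1.92 in control and 0.728, 0.668 and 0.619 in NG2|EDmut libraries. Of the other P3h genes, which are among the 19 further collagen-modifying genes listed, P3h2 was higher and P3h3 lower in NG2|EDmut cells. P3h2, a prolyl 3-hydroxylase known for acting on basement membrane collagen, was at 3.37, 1.71 and 1.89 CPM in serum-supplemented control libraries and 32.8, 27.3 and 27.2 CPM in NG2|EDmut libraries (log2 fold change 3.64 ± 0.31, edgeR adjusted p = 6.10e-06), and was also higher under starvation (4.10 ± 0.32, edgeR adjusted p = 1.77e-06).

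The values of P3h3, P3h4 and Ppib were chosen for mention after they had been seen. P3h3 was lower in NG2|EDmut cells, at 129, 196 and 185 CPM in control and 56.3, 55.7 and 67.5 CPM in NG2|EDmut libraries in serum (log2 fold change -1.50 ± 0.15, edgeR adjusted p = 2.17e-05), and by a like amount under starvation (-1.52 ± 0.15, edgeR adjusted p = 1.13e-05). P3h4, known to work with P3h3, was not called in serum (-0.20 ± 0.20, edgeR adjusted p = 0.476) and was called lower under starvation (-0.55 ± 0.20, edgeR adjusted p = 0.0435), a call lost when any 1 of 10 of the 12 libraries was left out (adjusted p up to 0.162). Ppib, the cyclophilin of the P3h1 complex, did not rise with P3h1 either: its log2 fold change was -0.25 ± 0.13 in serum (edgeR adjusted p = 0.171) and -0.49 ± 0.13 under starvation (0.00963).

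**Figure D4:**
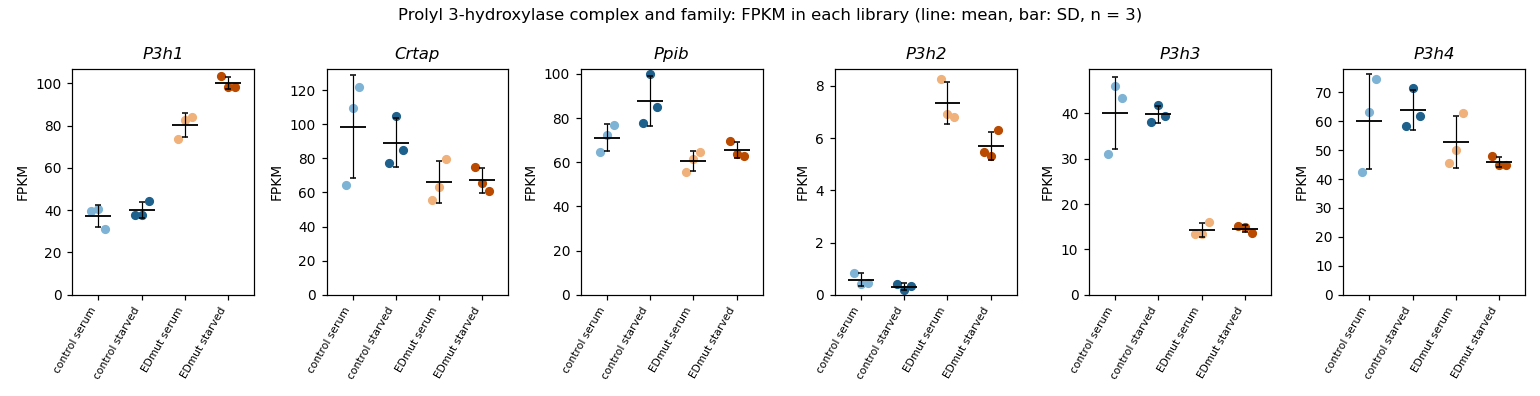
FPKM (vertical axes, starting at 0) of P3h1, its complex partners Crtap and Ppib, and the related genes P3h2, P3h3 and P3h4 in each library (points) by group, with the mean (line) and SD (bar, n = 3). P3h1 and P3h2 are higher and P3h3 is lower in every NG2|EDmut library than in any control library, and Crtap overlaps between the lines in serum.

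Serpinh1 was abundant and nearly level. In serum it was at 1890, 1746 and 1495 CPM in control and 1867, 1950 and 1839 CPM in NG2|EDmut libraries, which overlapped (log2 fold change 0.14 ± 0.11, edgeR adjusted p = 0.378). Under starvation it was at 1656, 1931 and 1833 CPM in control and 2300, 2211 and 2244 CPM in NG2|EDmut libraries, which did not overlap (1.25-fold, 0.32 ± 0.11, edgeR adjusted p = 0.0446). This call was lost when any 1 of 7 libraries was left out (adjusted p up to 0.121).

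The next comparison asks how the same genes differed within each line between starved and serum-supplemented cultures, which also differ in base medium. In control cells 4 of 10 members were called higher under starvation, beside 9.45% of all genes tested, and 0 were called lower, beside 10.8%. Plod1 rose the most, from 105, 101 and 85.7 CPM in serum to 194, 194 and 214 CPM under starvation, with no overlap (2.06-fold, log2 fold change 1.04 ± 0.10, edgeR adjusted p = 1.40e-04). P4ha1 rose 1.90-fold (0.93 ± 0.12, edgeR adjusted p = 7.03e-04), from at most 243 to at least 409.9 CPM. Plod2 rose 1.40-fold (0.48 ± 0.10, edgeR adjusted p = 0.00722), a call lost without control starved replicate 1 (adjusted p = 0.0561) and in the fit to only the 6 control libraries (0.110). P4hb rose 1.36-fold (0.45 ± 0.13, edgeR adjusted p = 0.0290), a call lost when any 1 of 5 libraries was left out (up to 0.129), in the fit to only the 6 control libraries (0.216) and with limma on FPKM (0.0594). For P4ha2, P4ha3, Plod3, Serpinh1, Crtap and P3h1 the serum-supplemented and starved control libraries overlapped, and their log2 fold changes lay between -0.11 and 0.29. At an unadjusted p under 0.05, too, 0 members were lower in either line with edgeR, DESeq2 or limma.

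In NG2|EDmut cells edgeR called 2 members higher under starvation, beside 0.957% of all genes tested, and 0 lower, beside 1.1%. This number depended on the fit: DESeq2 called 4 higher in each line, as edgeR did without control serum replicate 1, and fits to only the 6 libraries of a line called 2 in control and 7 in NG2|EDmut cells. The number of all genes called moved with the fit as well, so the shares above hold only for the main fit. Without control serum replicate 1 all genes called were 6390 in control and 1453 in NG2|EDmut cells. Further numbers of this kind are given in the last paragraph. Plod1 rose from 80.7, 84.9 and 87.4 CPM to 124, 115 and 121 CPM, with no overlap (1.42-fold, log2 fold change 0.51 ± 0.10, edgeR adjusted p = 0.0242). P4ha2 rose from 104, 111 and 119 CPM to 151, 152 and 160.1 CPM, also with no overlap (1.39-fold, 0.47 ± 0.11, edgeR adjusted p = 0.0489). Both calls were lost when any 1 of the 6 NG2|EDmut libraries was left out (adjusted p up to 0.143 and 0.235), and that of P4ha2 also without any 1 of the 3 starved control libraries. P4ha1, P4hb, Plod2, Serpinh1 and P3h1 did not pass, although their starved NG2|EDmut libraries all lay above their serum-supplemented ones, with log2 fold changes of 0.41, 0.33, 0.35, 0.26 and 0.31 (edgeR adjusted p 0.131 to 0.370). The 7 called in the fit to the NG2|EDmut libraries alone were these 5 with Plod1 and P4ha2. The median log2 fold change of the members with starvation was 0.22 in control and 0.32 in NG2|EDmut cells, against 0.04 and -0.01 over all genes.

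Whether starvation acted differently in the lines was tested by the interaction of line and starvation, in which edgeR called 0 of 10 members in either direction, beside 2.03% of all genes with a positive and 2.36% with a negative term. At an unadjusted p under 0.05 edgeR, DESeq2 and limma each gave 3 members, and after adjustment DESeq2 called 1 and limma 0. The smallest adjusted p was that of Plod1, with a log2 difference between its changes in NG2|EDmut and control cells of -0.53 ± 0.14 (edgeR adjusted p = 0.0572, DESeq2 0.00962). The other 2 were P4ha1 (-0.51 ± 0.17, edgeR adjusted p = 0.128) and P4ha2 (0.38 ± 0.15, 0.204). Without control serum replicate 1 edgeR called 2 members, Plod1 (adjusted p = 0.00761) and P4ha1 (0.0304). That fit called 3901 of all genes, beside 380 with a positive and 441 with a negative term in the fit to all libraries. The shares given above therefore do not apply to these 2 calls.

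The share of P4ha1 among the α subunits rose with starvation in control cells by 11.2 percentage points (SE 4.24, exact two-sided permutation p = 0.1, the smallest possible), or by 15.1 points without control serum replicate 1. In NG2|EDmut cells it moved by 0.215 points (SE 0.325, exact permutation p = 0.7). The share of Plod2 among the Plod genes moved by 1.06 points in control (SE 1.56, exact permutation p = 0.9) and 2.91 points in NG2|EDmut cells (SE 1.14, exact permutation p = 0.1), and the groups overlapped only in control cells.

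Other genes of collagen biosynthesis were taken from lists and are given by their counts, to be read against the shares of all genes called: 15.4% higher and 16.2% lower in serum, and 17.9% higher and 20.1% lower under starvation. Of the 19 further collagen-modifying genes, 4 were higher and 6 lower in NG2|EDmut cells in serum, and 7 were higher and 9 lower under starvation (edgeR). Of 26 tested genes for procollagen export and processing, 6 were higher and 6 lower in each condition, 23.1% each way. Creb3l1, a transcription factor known for driving collagen secretion, was among those higher, with 368, 261 and 259.8 CPM in control and 763, 833 and 779 CPM in NG2|EDmut libraries in serum (log2 fold change 1.42 ± 0.16, edgeR adjusted p = 5.56e-05) and a difference of 1.32 ± 0.16 under starvation (5.80e-05). Of 14 fibrillar and associated collagen chains, substrates of the members, edgeR called 0 higher and 7 lower in serum (median log2 fold change -0.80) and 1 higher and 7 lower under starvation (-0.99). In serum 1 chain was higher at an unadjusted p under 0.05, DESeq2 called 0 higher and limma 1. These counts weigh each chain alike, whatever its level. Col1a1, Col1a2 and Col3a1 were chosen for mention after their values had been seen. Mean Col1a1 CPM in serum was 22245 for control against 26597 for NG2|EDmut libraries (starved, 21083 against 24224). Col1a2 means, in the same order, were 21159 against 21940 (starved, 24887 against 22822). Those of Col3a1 were 4163 against 918 (starved, 4048 against 1920). Of 12 other collagen chains 1 was higher and 8 lower in serum (-1.85) and 1 higher and 7 lower under starvation (-1.25).

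Of 20 general chaperones and stress genes of the endoplasmic reticulum, a list that includes P4hb, 4 were higher and 5 lower in serum and 6 were higher and 4 lower under starvation. The number called in serum was 16 without control serum replicate 1, and under starvation it was 6 without NG2|EDmut starved replicate 2. With 1 library left out, all genes called also varied, from 4121 to 7657 in serum and from 5481 to 8655 under starvation. Such counts, here and for the lists below, are to be read against these ranges. Pdia5, a disulfide isomerase, had the smallest adjusted p in serum and was lower, at 52.3, 75.3 and 77.03 CPM in control and 36.4, 37.1 and 46.4 CPM in NG2|EDmut libraries (log2 fold change -0.77 ± 0.15, edgeR adjusted p = 0.00272). Atf4, a stress-response transcription factor, was higher by 0.59 ± 0.12 in serum (0.00274) and by 0.85 ± 0.12 under starvation (1.46e-04), where Canx, the lectin chaperone calnexin, was also higher (0.71 ± 0.10, edgeR adjusted p = 1.55e-04). Of 20 tested hypoxia-inducible genes 6 were higher and 3 lower in serum and 7 were higher and 4 lower under starvation, with medians of 0.03 and -0.05. The shares lower, 15.0% and 20.0%, were near those of all genes, and the shares higher were 30.0% and 35.0%. Slc2a1, a glucose transporter, was at 28.4, 41.0 and 39.5 CPM in control and 105, 90.8 and 83.4 CPM in NG2|EDmut libraries in serum (1.36 ± 0.14, edgeR adjusted p = 2.61e-05).

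Of 13 cytosolic heat shock genes 2 were higher and 4 lower in serum and 3 higher and 5 lower under starvation, where the number called was 5 without control starved replicate 1 or NG2|EDmut starved replicate 3. The median log2 fold change of the list was -0.26 in serum and -0.16 under starvation. Hspb1, a small heat shock protein, was at 3.75, 4.80 and 5.16 CPM in control and 61.8, 70.9 and 70.4 CPM in NG2|EDmut libraries in serum (log2 fold change 3.89 ± 0.21, edgeR adjusted p = 3.34e-07). Bag3, a co-chaperone, was lower under starvation (-1.03 ± 0.08, edgeR adjusted p = 2.42e-06). Of 9 genes that transport or make ascorbate, iron or 2-oxoglutarate, cofactors and cosubstrate of these hydroxylases, 2 were higher and 3 lower in serum and 1 was higher and 2 lower under starvation (5 called without control serum replicate 1). Among those lower was Slc40a1, which exports iron from cells, so the counts do not give a direction of supply. Its log2 fold change was -3.09 ± 0.58 in serum (edgeR adjusted p = 0.00179) and -3.92 ± 0.60 under starvation (2.85e-04). Tfrc, the transferrin receptor that brings iron into cells, was at 27.4, 41.1 and 25.1 CPM in control and 89.8, 77.9 and 78.0 CPM in NG2|EDmut libraries in serum (1.39 ± 0.17, edgeR adjusted p = 8.39e-05).

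With starvation in control cells the number of hypoxia-inducible genes called higher was 3 of 20 (15.0%, beside 9.45% of all genes), with 0 lower. Aldoa, a glycolytic enzyme, was at 360.2, 408 and 330.1 CPM in serum and 685, 816 and 738 CPM under starvation (log2 fold change 1.03 ± 0.11, edgeR adjusted p = 2.92e-04). Of the 26 tested genes for procollagen export and processing 3 were higher (11.5%) and 1 lower (3.85%), beside 9.45% and 10.8% of all genes. Among those higher was Adamts2, the protease that removes procollagen N-propeptides, at 269, 228 and 182 CPM in serum and 439.5, 365 and 518 CPM under starvation (0.96 ± 0.16, edgeR adjusted p = 0.00213). Without control serum replicate 1 the numbers called in control cells were 8 of the hypoxia-inducible and 9 of the export and processing genes, and the latter number was 1 without control serum replicate 2 and 2 without control serum replicate 3 or control starved replicate 1 or 3. All genes called also rose without control serum replicate 1, to 6390, beside 1767 higher and 2012 lower with all 12 libraries. The shares of all genes given above therefore do not apply to that fit. In NG2|EDmut cells 4 of 20 hypoxia-inducible genes were higher with starvation (20.0%, beside 0.957% of all genes) and 0 lower (beside 1.1%). Of these genes 1 or 2 were called when any NG2|EDmut library, or control starved replicate 1 or 3, was left out. In both lines 0 hypoxia-inducible genes were lower at an unadjusted p under 0.05 with edgeR, DESeq2 or limma.

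The genes that lie near P4ha3 on chromosome 7 were looked at after its fall had been seen. Within 1000 kb of its start there were 32 other tested genes, of which 8 were lower and 2 higher in NG2|EDmut cells in serum (median log2 fold change -0.32) and 9 were lower and 3 higher under starvation (-0.41). Of all genes tested 16.2% were lower and 15.4% higher in serum (median -0.03), and 20.1% lower and 17.9% higher under starvation (-0.02). The nearest, Pgm2l1, had a log2 fold change of -0.12 in serum (edgeR adjusted p = 0.741) and -0.63 under starvation (0.0611). On the other side C2cd3 differed by -0.23 (0.377) and -0.34 (0.167), and Ppme1 was lower, by -0.74 (2.37e-04) and -1.12 (6.38e-06). Serpinh1 lies in the same window, 932 kb before P4ha3. None of the 32 neighbours fell as far as P4ha3 in either condition, but P4ha3 was chosen for its fall, so this says little about the region. A shared cause was not tested.

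**Figure D5:**
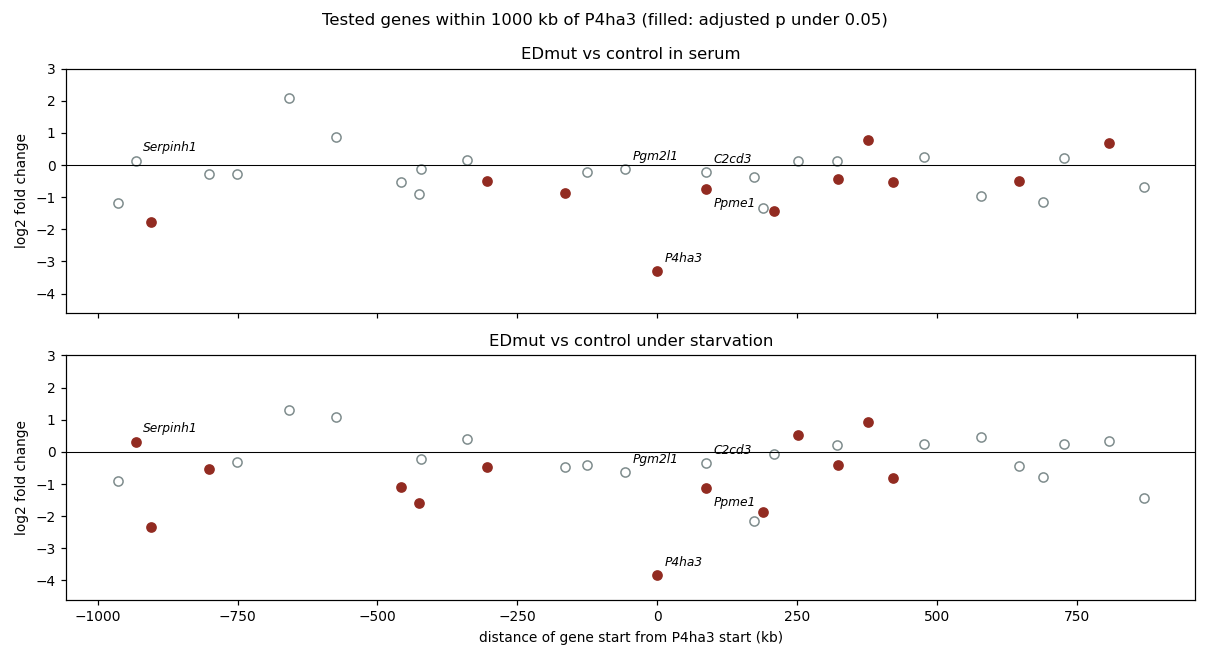
Log2 fold change between NG2|EDmut and control cells (vertical axes) of the tested genes within 1000 kb of the P4ha3 start, against the distance of their start from it in kb (horizontal axis), in serum (top) and under starvation (bottom); filled points have an edgeR adjusted p under 0.05. P4ha3 lies lowest in both panels, at -3.29 and -3.84, while the nearest gene, Pgm2l1, lies at -0.12 and -0.63.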

How the data were processed

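RNA was sequenced from 12 cultures of 2 lines in 2 conditions. Per the methods and the submitters' notes, poly(A) TruSeq Stranded libraries were run on a NovaSeq, checked with FastQC, mapped with HISAT2, assembled with StringTie, merged with gffcompare and tested with edgeR. The sources used here give no versions, build, annotation release or strand setting; 87.0% of genes had the coordinates of GENCODE M21 (GRCm38), 9 of the 10 members (not P4ha2) among them. Genes that overlap or share reads with a copy are uncertain.

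For each gene the authors deposited estimated counts derived from StringTie coverage. All were whole numbers, so no rounding was needed. Without the read length that scales them, they cannot be turned into reads. FPKM values of the same coverage, deposited beside them by the authors, are no independent measurement. Totals of 60277881 to 77172479 estimated counts per library set the precision together with the spread between replicates.

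Differences were tested in R 4.3.3 with edgeR 4.0.16 after filterByExpr and TMM, by the quasi-likelihood test with a mean per group over all 12 libraries, Benjamini-Hochberg adjusted over 18703 genes, threshold 0.05, also for the interaction. The test was also run on simulated counts with changes set only in the serum-supplemented NG2|EDmut group. These held no library set apart like control serum replicate 1, and the outcome is not given here. Levels are CPM after TMM. Shares of summed FPKM were compared by exact two-sided permutation over libraries. Alternatives were DESeq2 1.42.0, RLE size factors, no filter, at least 10 counts in every library, only the groups compared, limma-trend (limma 3.58.1) on log2 FPKM with pseudocounts of 1 and 0.1, counts divided by 4, a replicate block, and leaving out each library. The members and all lists were chosen with earlier results of these data known. Named beside the members are up to 2 called genes of each list and comparison with the smallest adjusted p, and those said to be chosen after their values were seen.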

Additional observations from a re-analysis of the deposited data

Results flagged for a closer look

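Among the genes of the lists, 9 had an interaction of line and starvation past the threshold (edgeR), and for each the value given is the log2 difference between the change with starvation in NG2|EDmut cells and that in control cells. Loxl1, a lysyl oxidase-like enzyme of cross-linking, had -1.15 (adjusted p = 0.0116), with changes of 0.77 in control and -0.38 in NG2|EDmut cells. Egln3, an oxygen-sensing prolyl hydroxylase, had -1.40 (0.0190; 1.38 and -0.02), and the stress gene Ddit4 had 1.06 (0.0124; 0.26 and 1.33). The heat shock gene Hspd1 had 1.06 (0.0293; -1.11 and -0.05) and the co-chaperone Bag3 had -0.67 (0.00880; 0.82 and 0.15). Of the collagen chains, Col2a1 had 1.52 (0.0484; -1.73 and -0.21), Col6a1 1.11 (0.0413; -0.25 and 0.86), Col6a2 1.35 (0.0446; -0.46 and 0.89) and Col15a1 3.44 (0.0127; -2.12 and 1.31). Of the 12 fits that left out 1 library, 11 lost the call of Hspd1 (edgeR adjusted p up to 0.0858). The calls of Col2a1, Col6a1 and Col6a2 were each lost in 10 (up to 0.125, 0.117 and 0.1235). Egln3 lost its call in 5 (up to 0.0648) and Loxl1 in 1 (0.0532), while Ddit4, Bag3 and Col15a1 kept theirs. The replicate block also lost those of Hspd1, Col2a1, Col6a1, Col6a2 and Egln3. No cause of these differences was tested.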

How the results depend on the processing

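Over the 10 members, 5 comparisons and all alternatives, 954 values kept their direction and their side of the threshold, 60 lost the call, 17 gained it and 9 changed sign. The sign changes came only from leaving out a library and touched values that were not called: P4ha2 with starvation in control cells ranged from -0.01 to 0.16 (log2), Serpinh1 there from -0.01 to 0.16, P4hb in the interaction from -0.18 to 0.02, Plod3 between the lines in serum from -0.02 to 0.07, and Crtap from -0.34 to 0.08 with starvation in control cells, from -0.10 to 0.17 in NG2|EDmut cells and from -0.07 to 0.35 in the interaction. The number of members called between the lines in serum stayed at 5 to 6 when 1 library was left out. Under starvation it ranged from 5 to 9. For starvation in control cells it was 2 with only the groups compared (3 to 4 with 1 library left out). For starvation in NG2|EDmut cells it was 4 with DESeq2, 1 with no filter, 7 with only the groups compared and 0 with the replicate block (0 to 4 with 1 library left out), and for the interaction 1 with DESeq2 (0 to 2). From estimated counts after TMM in place of FPKM, the change with starvation in the share of P4ha1 was -0.174 points in NG2|EDmut cells (-0.0583 to 0.449 with 1 library left out) and that in the share of Plod2 was -0.822 points in control cells (-0.445 to 2.09). Same-numbered libraries of different groups did not deviate together (r -0.328 to 0.303 over 18 pairs), so the numbers are not taken as pairs. With the replicate block 5, 6, 4, 0 and 0 members were called in the 5 comparisons. Over all genes, 3779 were called for starvation in control cells against 795 with only those groups, 385 in NG2|EDmut cells against 982 with DESeq2 and 2760 with only those groups, and 821 in the interaction against 1754 with DESeq2. Without control serum replicate 1 these 3 counts were 6390, 1453 and 3901. The causes were not tested.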
